A study of Mus musculus with 63 samples.

Results

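PDGFR-β+ cells of the mouse kidney were compared between 7 days of unilateral ureteric obstruction (UUO-7) and sham operation, using the small RNA sequencing libraries whose labels give this cell type and either condition. These are 7 of the 63 libraries of the series: 4 sham libraries (replicates 1 to 4) and 3 UUO-7 libraries (replicates 2, 4 and 5). All mice were C57BL/6, and the study's methods describe them as males of 8 to 12 weeks. No allele, transgene or drug was used. Cells negative for CD45 and CD31 and positive for PDGFR-β were sorted from digested kidney cortex, so that fibroblasts, pericytes and other mural cells are not separated. The other groups drawn on below are the same cells after 2 days of obstruction (UUO-2, 4 libraries) and 14 days after the obstruction was undone at day 7 (R-UUO, 4 libraries), as well as endothelial cells (ECs), F4/80hi macrophages (Macs) and LTL+ proximal tubular (PT) cells of sham and UUO-7 kidneys, with 4 libraries in each group. The authors removed 1 UUO-7 library of PDGFR-β+ cells as an outlier, and it was not analysed here.

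PDGFR-β marks the pericytes, perivascular fibroblasts and vascular smooth muscle of the kidney, and these cells are the main source of the myofibroblasts that lay down collagen after ureteric obstruction. A miRNA is cut from a hairpin precursor into a 5p and a 3p strand, and the loaded strand pairs with mRNAs mainly through its seed, bases 2 to 8, so that miRNAs with a common seed share many targets. miRNAs are often transcribed together from clusters, or from within host genes, and then share a precursor transcript.

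The sequences below, the mature miRNAs of RefSeq for GRCm38.p6 with the seed in capitals, are those that the results turn on. They are shown because several seeds are carried by more than 1 miRNA, whose loci moved the same way in some cases and in opposite ways in others. First come miRNAs with higher levels at UUO-7, of which miR-146a-5p and miR-146b-5p share a seed, as do miR-148a-3p and miR-152-3p, and miR-132-3p and miR-212-3p.
miR-21a-5p: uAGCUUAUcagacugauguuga
miR-146a-5p: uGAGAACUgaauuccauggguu
miR-146b-5p: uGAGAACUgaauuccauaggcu
miR-155-5p: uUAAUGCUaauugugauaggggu
miR-199a-3p: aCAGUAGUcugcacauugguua
miR-214-3p: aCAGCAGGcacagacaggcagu
miR-148a-3p: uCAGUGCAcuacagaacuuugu
miR-152-3p: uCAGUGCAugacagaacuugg
miR-132-3p: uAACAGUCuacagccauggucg
miR-212-3p: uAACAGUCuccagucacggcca
miR-127-3p: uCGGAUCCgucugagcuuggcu
miR-541-5p: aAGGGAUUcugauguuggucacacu
The next 3 seeds were carried by miRNAs of both directions.
miR-125a-5p: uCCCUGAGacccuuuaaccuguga
miR-125b-5p: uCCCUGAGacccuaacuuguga
miR-351-5p: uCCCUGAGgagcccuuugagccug
miR-15a-5p: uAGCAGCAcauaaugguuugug
miR-15b-5p: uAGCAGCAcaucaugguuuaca
miR-322-5p: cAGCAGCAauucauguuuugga
miR-181a-5p: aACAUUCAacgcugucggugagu
miR-181c-5p: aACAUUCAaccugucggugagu
The last group holds miRNAs that were lower at UUO-7, with miR-29a-3p and miR-10a-5p, the partners by seed of miR-29c-3p and miR-10b-5p.
miR-29c-3p: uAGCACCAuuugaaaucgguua
miR-29a-3p: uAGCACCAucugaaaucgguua
miR-10b-5p: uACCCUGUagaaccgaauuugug
miR-10a-5p: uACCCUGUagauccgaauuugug
miR-27b-3p: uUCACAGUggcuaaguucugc

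The libraries held 2732682 to 7932031 counts in sham and 1905053 to 4346685 at UUO-7. Levels are given as CPM, the count relative to the TMM-scaled library size, where 3 counts correspond to 0.421 to 1.16 CPM. Labels of cell type were checked against marker miRNAs. Stromal markers (the miR-199 and miR-214 loci, miR-143-3p and miR-145a-5p) took 24.6% to 27.5% of the counts in sham PDGFR-β+ cells, against 0.805% to 1.66% in sham ECs, 0.317% to 0.754% in sham Macs and 0.221% to 0.535% in sham PT cells. At UUO-7 they took 12.9% to 16.6%. Markers of the other sorted types were present at low levels, and some moved with the condition. The 4 leukocyte loci (miR-142a-3p, miR-142a-5p, miR-223-3p, miR-150-5p) had a summed share of 0.00539% to 0.0147% in sham and 0.0286% to 0.0790% at UUO-7, while Macs held 5.27% to 6.41% in sham and 3.33% to 3.82% at UUO-7. The 2 endothelial loci of miR-126a held 0.141% to 0.176% in sham and 0.0673% to 0.141% at UUO-7, against 9.97% to 10.99% in sham ECs. The 9 epithelial loci held 0.251% to 0.433% in sham and 0.223% to 0.319% at UUO-7, against 16.2% to 18.9% in sham PT cells. The 3 red cell loci held 0.00278% to 0.01001% and 0.00933% to 0.0118%. None of these marker loci was at 0 in either group, and their part in the changes below was not tested. In sorted bulk cells, a change in the mix of cells and a change of the level per cell cannot be told apart.

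Obstruction for 7 days changed a large part of the miRNA pool of PDGFR-β+ cells. Of 477 loci tested, 162 were higher at UUO-7 (34.0%) and 68 were lower (14.3%), or 48.2% in either direction, by at least 1.5-fold at an FDR of 0.05 with edgeR's quasi-likelihood test. Counts of called loci in the lists below are to be read beside these shares over all loci. The median log2 change of all 477 loci was 0.50, and the split of the calls depended on the scaling of the libraries. It was 146 higher and 94 lower with RLE size factors, 221 and 35 with library size only, and 124 and 123 when the UUO-7 libraries were rescaled so that the median change was close to 0, an alternative chosen after seeing the data. No locus was called in opposite directions by the main and any of these scalings. The libraries of the groups did not overlap at 277 loci (58.1%), 187 of them higher and 90 lower at UUO-7.

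The pool became less concentrated. The 10 most abundant loci held 80.9% to 82.6% of the counts of a sham library and 68.9% to 71.6% of a UUO-7 library. miR-143-3p, a miRNA of smooth muscle and mural cells, was the most abundant locus of all 4 sham libraries and held 25.6% ± 1.25 of their counts (SD, n = 4), against 13.2% ± 1.85 at UUO-7 (n = 3). miR-10b-5p, which lies in the HoxD cluster, held 19.4% ± 0.837 and 12.5% ± 1.35. miR-21a-5p went from 0.123% ± 0.0364 to 5.47% ± 0.741. miR-22-3p went from 3.15% ± 0.135 to 7.47% ± 0.242. By contrast the share of miR-10a-5p was 13.5% ± 0.322 in sham and 13.2% ± 2.15 at UUO-7. Loci differed by level: of the 57 loci with a mean of at least 1000 CPM, 14 were higher and 20 lower with a median log2 change of -0.42, whereas of the 196 loci under 10 CPM, 64 were higher and 6 lower with a median of 0.91. Rare loci can pass the filter on low counts through the group where they are high, and 12 tested loci had no sham count. Without the filter the median of all 1241 loci was 0.09. The part of the filter in the difference by level was not tested.

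**Figure D1:**
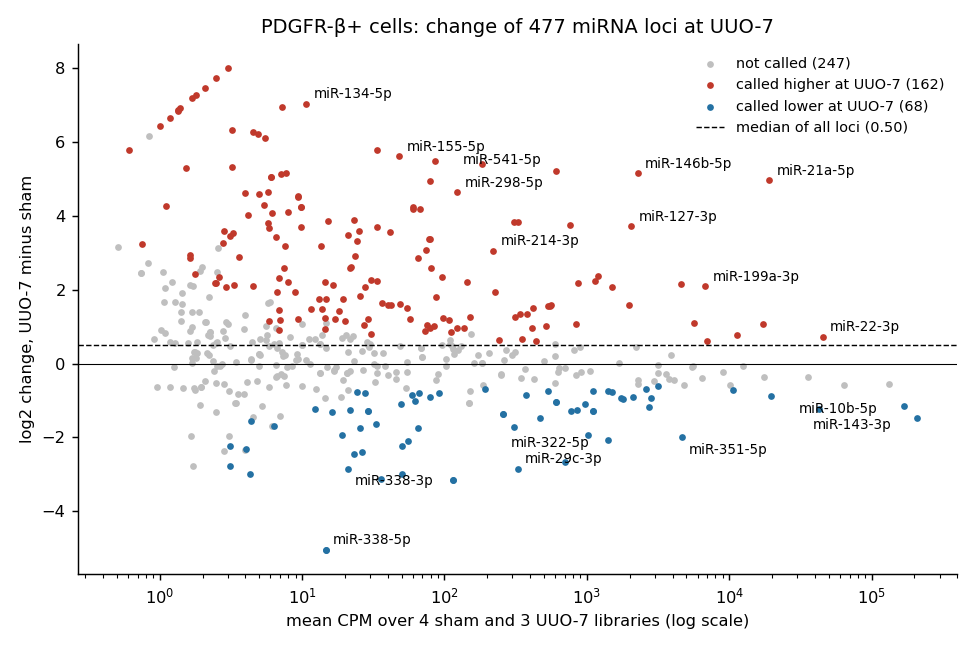
Log2 change at UUO-7 against mean CPM (log scale) for the 477 miRNA loci tested in PDGFR-β+ cells, one point per locus, coloured by call. The 162 higher loci reach from under 1 CPM to miR-22-3p and miR-21a-5p, whereas the 2 most abundant loci, miR-143-3p and miR-10b-5p, are among the 68 lower ones. The dashed line is the median of all loci (0.50). Points above a log2 change of about 6 are loci with few or no counts in sham, whose fitted change depends on the prior count.

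miR-21a-5p, an injury-induced miRNA encoded at the end of Vmp1 (GRCm38, as all positions here, chr11:86584120-86584141, minus strand, exonic), was at 1804, 1117, 1420 and 1124 CPM in sham replicates 1 to 4 and at 37934, 45727 and 44864 CPM at UUO-7. All 3 UUO-7 libraries lay far above the sham libraries. Its log2 change was 4.97 ± 0.25 (SE), a fold of 31.4, with an adjusted p of 5.9e-10. The other strand of the same hairpin, miR-21a-3p, went from 2.80 to 20.6 CPM to 351 to 456 CPM, a log2 change of 5.40 ± 0.45 (adjusted p = 2.4e-07). At UUO-2 miR-21a-5p stood between the groups, at 7553 to 17236 CPM, and in R-UUO it was at 31998 to 43001 CPM.

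miR-146b-5p, which is induced through NF-κB and lies in an intron of Mfsd13a (chr19:46342790-46342811), was at 164, 159, 131 and 115 CPM in sham and 5348, 3358 and 6628 CPM at UUO-7. The groups did not overlap, and the log2 change was 5.16 ± 0.25 (adjusted p = 5.9e-10). Its relative by seed, miR-146a-5p (chr11:43374435-43374456), started at a similar level of 151 to 292 CPM and reached 502 to 559 CPM, a log2 change of 1.35 ± 0.21 (adjusted p = 6.9e-05). Together the loci of this seed summed to 347 ± 78.7 CPM in sham and 5634 ± 1618 CPM at UUO-7. The third locus of the list, miR-146b-3p, had no count in any sham library and 0.386 to 1.98 CPM at UUO-7.

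miR-155-5p, processed from an exon of the noncoding Mir155hg (chr16:84714143-84714165), was near the limit of detection in sham, at 2.10, 1.21, 4.99 and 0.70 CPM, and at 94.5, 95 and 139 CPM at UUO-7. Every UUO-7 library exceeded every sham library, with a log2 change of 5.63 ± 0.53 (adjusted p = 6.6e-07). UUO-2 libraries held 15.8 to 51.2 CPM. Because leukocyte markers moved with the condition, the levels in Macs were set beside these 3 miRNAs. On a common scaling of all cell types, miR-146b-5p at UUO-7 had a mean of 6684 CPM in PDGFR-β+ cells and 6133 CPM in Macs, and miR-21a-5p 56041 and 41963 CPM. The leukocyte markers of the same PDGFR-β+ libraries made up 0.0475% of counts on average, against 3.57% in the Macs. For miR-155-5p the means were 143 and 180 CPM.

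In the leukocyte list, 6 of 7 tested loci were higher, against 34.0% of all loci. They include miR-142b, which overlaps miR-142a-3p and carries the same counts. The number was 5 with RLE size factors, after centring, or without any 1 of sham replicates 1, 2 and 4 and UUO-7 replicate 5, and 4 when only the 7 libraries were fitted. miR-142a-5p, a miRNA of all blood cells from the Mir142hg transcript, went from 35.2 to 88.3 CPM in sham to 162 to 406 CPM at UUO-7, a log2 change of 2.22 ± 0.33 (adjusted p = 4.8e-05). miR-223-3p, a myeloid miRNA, was at 2.52, 2.17, 39.9 and 2.80 CPM in sham and at 21.0, 28.4 and 117 CPM at UUO-7. Sham replicate 3 overlapped the UUO-7 range, and the call (log2 change 2.26 ± 0.86, adjusted p = 0.038) was lost without UUO-7 replicate 5 (log2 change 1.08, adjusted p = 0.36). It was also lost without sham replicates 1, 2 or 4, at adjusted p of 0.092, 0.094 and 0.090.

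Stromal miRNAs did not move as one. All 8 loci of the miR-199 and miR-214 list were higher, with a median log2 change of 2.37 against 0.50 for all loci. miR-199a and miR-214 are cut from Dnm3os, an antisense transcript of the Dnm3 gene that is known from mesenchymal cells. miR-199a-3p of chromosome 1 (chr1:162217883-162217904) was at 2500, 2996, 3114 and 2709 CPM in sham and 11468, 13443 and 11331 CPM at UUO-7, a fold of 4.27 (log2 2.09 ± 0.18, adjusted p = 3.3e-07). miR-214-3p (chr1:162223438-162223459) was at 53.2, 53.0, 55.6 and 49.7 CPM in sham and 407, 509 and 411 CPM at UUO-7, with a log2 change of 3.06 ± 0.16 (adjusted p = 5.9e-10). Sham libraries lay within 6 CPM of each other and every UUO-7 library was above 400 CPM. The 3p strands of miR-199a and miR-199b are identical in RefSeq, so that reads cannot be assigned between their loci, and the loci of this seed summed to 3474 ± 342 CPM in sham and 14783 ± 1440 CPM at UUO-7. At UUO-2 miR-199a-3p was at 2851 to 4760 CPM and in R-UUO at 11226 to 15769 CPM.

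The miR-143 and miR-145 cluster, whose miRNAs are known from contractile smooth muscle and pericytes, moved the other way, with 4 of 4 tested loci lower and a median log2 change of -1.38. miR-143-3p was at 269442, 342175, 242431 and 304316 CPM in sham and at 90584, 116565 and 104451 CPM at UUO-7. The lowest sham library was above the highest UUO-7 library by more than 2-fold, and the level fell by 1.48 ± 0.24 on the log2 scale (adjusted p = 9.3e-05). miR-145a-5p was at 1057, 1433, 614 and 1007 CPM in sham and 444, 447 and 381 CPM at UUO-7 (log2 change -1.28 ± 0.35, adjusted p = 0.0062). miR-145a-3p fell by 1.94 ± 0.22 and miR-143-5p by 1.02 ± 0.21 on the log2 scale. With library size only, 2 of the 4 loci were called lower, miR-143-3p and miR-145a-3p. At UUO-2 miR-143-3p was at 168690 to 321194 CPM, a range that overlaps the sham libraries, and in R-UUO it was at 59463 to 107289 CPM.

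**Figure D2:**
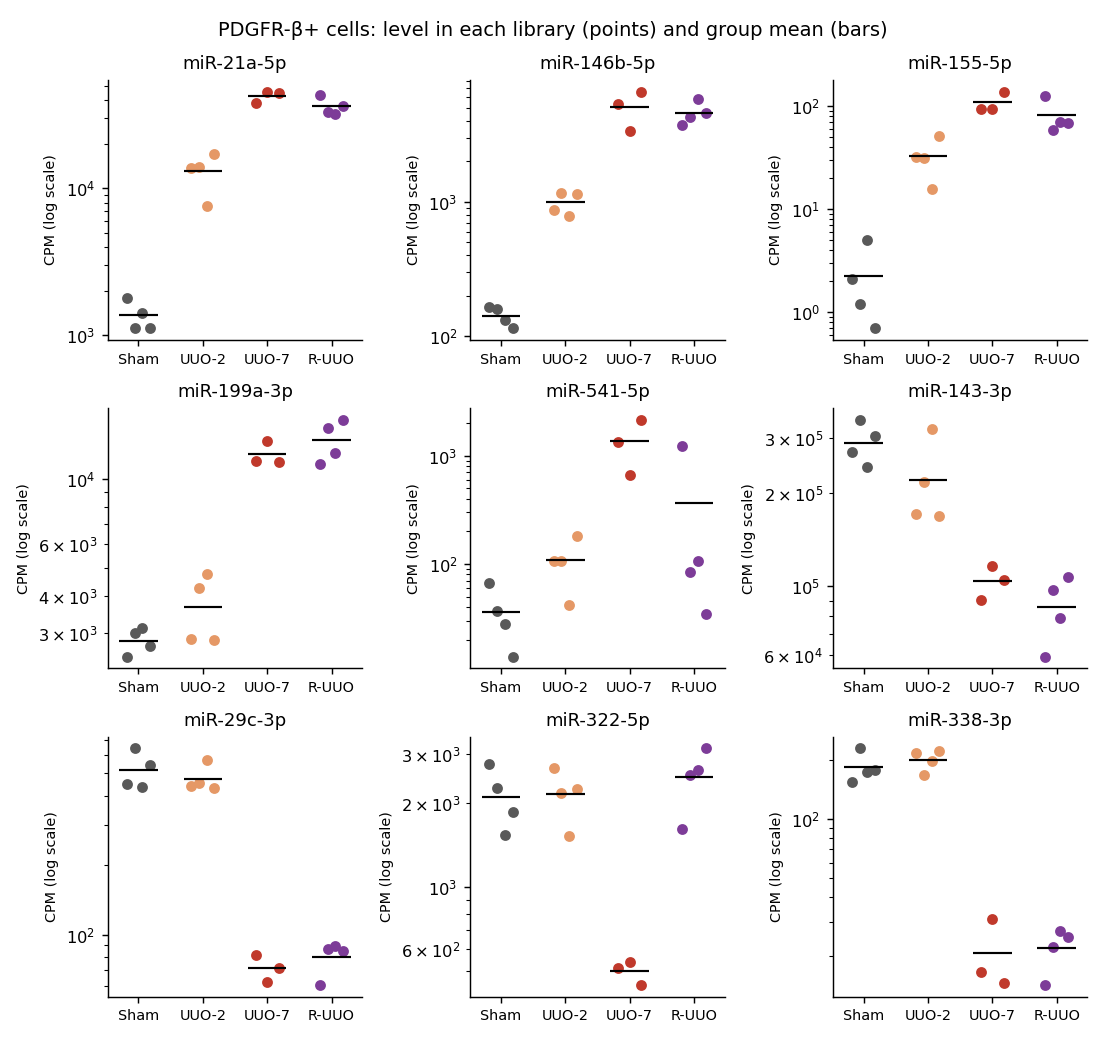
CPM (log scale, own axis per panel) of 9 loci in the 15 libraries of PDGFR-β+ cells, with 1 point per library and a bar at the group mean. UUO-7 and sham points do not overlap in any panel; UUO-2 points of miR-21a-5p, miR-146b-5p and miR-155-5p lie between the sham and UUO-7 points, those of miR-29c-3p and miR-338-3p lie at the sham level, and for miR-541-5p R-UUO replicate 1 stands apart from the other R-UUO libraries.

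In 3 other families every tested locus was higher, against 34.0% of all loci. All 4 loci of miR-132 and miR-212, a cluster induced by CREB, were higher with a median log2 change of 2.53. miR-132-3p (chr11:75173723-75173744) went from 62.0 to 161 CPM in sham to 357 to 447 CPM at UUO-7, and miR-212-3p from 11.9 to 22.7 CPM to 107 to 162 CPM. The 2 share a seed, whose sum was 120 ± 43.6 CPM in sham and 519 ± 78.2 CPM at UUO-7. All 6 loci of miR-148 and miR-152 were higher (median 1.78). miR-148a-3p (chr6:51269829-51269850) was at 2651, 1561, 1529 and 1565 CPM in sham and 9105, 7249 and 8220 CPM at UUO-7 (log2 change 2.16 ± 0.20, adjusted p = 6.6e-07), while miR-148b-3p and miR-152-3p changed by 0.96 ± 0.15 and 0.97 ± 0.21. Centring the changes on the median locus left 4 of these 6 calls. All 4 loci of miR-221 and miR-222, which act on the cell cycle inhibitor p27, were higher (median 1.36), with miR-222-3p (chrX:19146901-19146923) at 265 to 389 CPM in sham and 870 to 920 CPM at UUO-7. After centring, 2 of the 4 were called. With RLE size factors, with DESeq2, and without any 1 of sham replicates 2, 3 and 4 and UUO-7 replicates 2, 4 and 5, 3 of them were called.

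Of the 12 loci of miR-99, miR-100 and miR-125, 7 were higher and none lower, against 34.0% and 14.3% of all loci. miR-125b-5p of chromosome 9 (chr9:41581940-41581961) rose from 337 to 564 CPM to 2015 to 2209 CPM (log2 change 2.23 ± 0.22, adjusted p = 1.2e-06). The minor strand of its hairpin, miR-125b-1-3p, rose by 3.83 ± 0.28. miR-125a-5p, with the same seed and a higher level, was at 8030 to 11196 CPM in sham and 7613 to 8906 CPM at UUO-7, and its log2 change of -0.23 ± 0.14 did not pass the test (adjusted p = 0.21). The third miRNA of this seed, miR-351-5p of the X chromosome, fell by 2.00 ± 0.27 on the log2 scale, from 4608 to 9156 CPM to 1568 to 1810 CPM (adjusted p = 2.1e-05). Summed over the 3 miRNAs, CPM with this seed were 20676, 19322, 13459 and 15787 in sham and 14082, 14057 and 12818 at UUO-7, which overlap. On this scaling the UUO-7 sums lay in the lower part of the sham range or below it. That order depended on the TMM factors, which were 0.791 to 1.03 in sham and 1.23 to 1.36 at UUO-7. As shares of the raw counts of a library, the UUO-7 sums lay in the upper part of the sham range.

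Further single loci were named by size of change. miR-298-5p (chr2:174267553-174267575), one of the miRNAs of the imprinted Gnas domain, was at 18.1, 13.7, 1.07 and 9.10 CPM in sham and 228, 251 and 340 CPM at UUO-7 (log2 change 4.65 ± 0.57, adjusted p = 7.7e-06). All 3 tested loci of its cluster, with both strands of miR-296, were higher. miR-582-3p, in an intron of Pde4d, rose from 1.93 to 7.84 CPM to 46.1 to 61.8 CPM (3.60 ± 0.41, adjusted p = 4.3e-06). miR-22-3p, from an exon of Mir22hg, rose from 31451 to 39188 CPM to 56936 to 60419 CPM (0.73 ± 0.10, adjusted p = 2.1e-05). This last fold of 1.65 is near the threshold, and it was below 1.5 with RLE size factors (log2 0.49). miR-182-5p of the miR-183, miR-96 and miR-182 cluster rose from 123 to 251 CPM to 371 to 529 CPM (1.27 ± 0.29, adjusted p = 0.0019), and 2 of the 3 tested loci of that cluster were higher.

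A coordinated gain was that of the Dlk1-Dio3 region of chromosome 12, an imprinted domain whose miRNAs are expressed from the maternal chromosome, with 1 group of hairpins antisense to Rtl1 and another, from miR-379 to miR-410, within the noncoding Mirg. The table holds 115 mature loci between chr12:109563710-109747949, of which 57 passed the filter on low counts. Of these 57, 51 were higher at UUO-7 and none was lower, with a median log2 change of 4.53. With the 9 tested loci without any sham count set to the change from 3 counts over the sham libraries, the median was 4.18. A locus can pass the filter through the libraries of 1 condition alone. The 9 loci without a sham count could therefore only be called higher or not called. The summed share of all 115 loci, given below, does not depend on the filter. On the Rtl1 side 17 of 18 loci were higher (median 3.84), and on the miR-379 to miR-410 side 34 of 39 (median 5.07, or 4.20 with the 9 loci at that bound). Apart from this region, 111 of 420 loci were higher and 68 lower, with a median of 0.29.

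miR-127-3p, the most abundant of them (chr12:109592888-109592909, on the Rtl1 side), was at 485, 297, 385 and 147 CPM in sham and 4819, 2490 and 5762 CPM at UUO-7. It rose by 3.73 ± 0.77 on the log2 scale, with an adjusted p of 0.0011. miR-541-5p (chr12:109742422-109742446, in an intron of Mirg) was at 66.1, 36.6, 28.1 and 14.0 CPM in sham and 1334, 665 and 2128 CPM at UUO-7, a log2 change of 5.23 ± 1.04 (adjusted p = 0.00075). The lowest UUO-7 library was replicate 4 and the highest replicate 5 for both, and all 3 lay above the sham libraries. miR-411-5p (3.77 ± 0.84), miR-434-3p (3.83 ± 0.84), miR-136-3p (3.38 ± 0.77), miR-410-3p (4.18 ± 0.83) and miR-409-3p (5.49 ± 1.12) showed the same order of the 3 libraries, except that miR-136-3p was highest in replicate 2. miR-134-5p had 3 counts in all sham libraries together and 277 at UUO-7, a ratio of scaled counts of 126 with an exact binomial 95% interval of 42.5 to 612, which covers counting error only.

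The summed share of the 115 loci was 0.0879%, 0.0428%, 0.0751% and 0.0250% of the counts in sham replicates 1 to 4, and 1.30%, 0.663% and 1.85% at UUO-7. The lowest UUO-7 library thus held more than 7 times the share of the highest sham library, while the 3 UUO-7 libraries differed among themselves by nearly 3-fold. UUO-2 libraries held 0.0486% to 0.0842%, within the sham range. Of the R-UUO libraries, replicate 1 held 0.977% and the other 3 held 0.0437% to 0.110%. The standard errors of the region were wide, and the number of its loci called higher ran from 44 (without UUO-7 replicate 5) to 53 (without UUO-7 replicate 4). Without R-UUO replicate 1, which takes part only in the estimate of the spread, 46 were called.

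**Figure D3:**
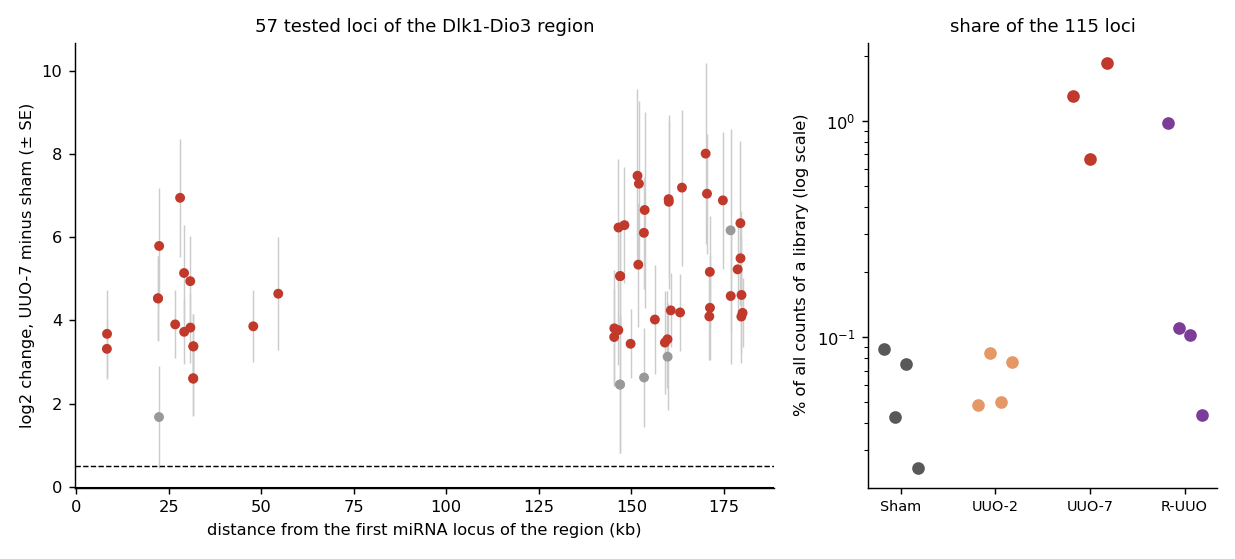
Left, log2 change at UUO-7 with its SE for the 57 tested loci of the Dlk1-Dio3 region against the distance in kb from the region's first miRNA locus (red, called higher; grey, not called; dashed line, median of all loci). Right, the summed share of the 115 loci in each library as a percentage of its counts (log scale): the 3 UUO-7 libraries lie between 0.663% and 1.85%, and 1 R-UUO library lies at 0.977% beside 3 at the sham level.

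Among the miRNAs that fell, miR-29c-3p is of the family known to target collagen mRNAs. From A330023F24Rik (chr1:195037600-195037621), it was at 448, 641, 436 and 544 CPM in sham and 81.8, 62.4 and 71.4 CPM at UUO-7, which do not overlap. It was 7.20-fold lower (log2 change -2.85 ± 0.20, adjusted p = 3.7e-08). Of the 7 tested loci of miR-29, 2 were lower, namely both strands of miR-29c, against 14.3% of all loci. The number was 3 with RLE size factors, 4 with DESeq2 and 5 after centring, and 1 without UUO-7 replicate 4, 3 without sham replicate 3 and 3 without R-UUO replicate 1. miR-29a-3p, which has the same seed and is more abundant, was at 1066 to 1156 CPM in sham and 802 to 1061 CPM at UUO-7 (log2 change -0.19 ± 0.15, adjusted p = 0.31). CPM carrying the miR-29 seed summed to 1667 ± 74.1 in sham and 1065 ± 155 at UUO-7. The size of this fall depended on the TMM scaling. As a share of the raw counts, the loci of the miR-29 list, both strands included, held 0.142% to 0.167% in sham. At UUO-7 they held 0.121% to 0.144%, which overlaps the sham range. miR-29c-3p was at 433 to 569 CPM at UUO-2 and 60.5 to 89.1 CPM in R-UUO.

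A larger fall was that of miR-338, from an intron of the kinase gene Aatk. miR-338-3p (chr11:120014781-120014802) was at 155, 229, 175 and 179 CPM in sham and 16.7, 30.8 and 14.7 CPM at UUO-7 (log2 change -3.14 ± 0.30, adjusted p = 6.6e-07). miR-338-5p went from 14.3 to 38.5 CPM to 0.22 to 1.16 CPM, which is 9 counts over the 3 UUO-7 libraries. miR-3065 lies on the opposite strand of the same bases and its loci carried almost the same counts, so that their reads cannot be told apart here. At UUO-2 miR-338-3p was at 168 to 224 CPM, the sham level, and in R-UUO at 14.3 to 26.7 CPM.

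On the X chromosome, the cluster of miR-322, miR-503, miR-351, miR-542 and miR-450 fell together: 10 of 11 tested loci were lower, none was higher, and the median log2 change was -2.23. These miRNAs, of which miR-322-5p has the seed of the miR-15 and miR-16 family, are known for effects on the cell cycle and muscle differentiation. miR-351-5p and miR-322-5p were the most abundant. miR-322-5p (chrX:53054306-53054327) was at 2766, 2261, 1536 and 1847 CPM in sham and 513, 539 and 445 CPM at UUO-7 (log2 change -2.07 ± 0.25, adjusted p = 6.8e-06). miR-450a-5p, which has 2 loci with one mature sequence, fell by 3.12 ± 0.44 at the first (chrX:53048206-53048227) and by 2.98 ± 0.44 at the second (chrX:53048339-53048360). miR-542-5p fell by 2.85 ± 0.50, miR-322-3p by 2.67 ± 0.40 and miR-503-3p by 2.44 ± 0.47. At UUO-7 the libraries of miR-351-5p lay between 1568 and 1810 CPM, while those of miR-503-3p lay between 2.70 and 9.92 CPM and those of miR-542-5p between 2.64 and 6.56 CPM. In R-UUO miR-322-5p was at 1614 to 3132 CPM, a range that overlaps sham.

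The miR-15 and miR-16 seed was split between directions. miR-15a-5p, in an intron of Dleu2, fell from 361 to 501 CPM to 128 to 138 CPM (log2 change -1.73 ± 0.21, adjusted p = 6.7e-06), while miR-15b-5p, in an intron of Smc4, rose from 10.7 to 16.6 CPM to 59.9 to 62.1 CPM (2.24 ± 0.25, adjusted p = 3.3e-06). miR-16-5p, which both host genes carry in identical copies, was at 3960 to 5398 CPM in sham and 3392 to 3428 CPM at UUO-7 at its chromosome 14 locus (-0.43 ± 0.11), below the fold threshold. Summed over 7 loci, CPM with this seed were 11131 ± 1357 in sham and 7249 ± 108 at UUO-7. The size of this fall depended on the TMM scaling. As a share of the raw counts, the list of miR-15, miR-16, miR-195, miR-322 and miR-497, both strands included, held 1.07% to 1.11% in sham. At UUO-7 it held 0.929% to 1.01%.

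In the miR-23, miR-27 and miR-24 clusters 8 of 10 loci were lower and 1 was higher, against 14.3% and 34.0% of all loci. miR-27b-3p (chr13:63300760-63300780), the most abundant, was at 55332, 63613, 50984 and 58065 CPM in sham and at 23540, 27867 and 21179 CPM at UUO-7 (log2 change -1.24 ± 0.17, adjusted p = 2.4e-05), with no overlap. miR-23b-3p fell by 1.26 ± 0.13, miR-24-3p of chromosome 8 by 1.04 ± 0.16 and miR-27a-3p by 0.93 ± 0.19. The exception was miR-27a-5p, the minor strand of the hairpin of miR-27a-3p, which rose from 2.10 to 3.21 CPM to 12.2 to 13.5 CPM (2.32 ± 0.40, adjusted p = 0.0002). With library size only, 3 loci of this list remained lower. Of the Hox-linked miR-10 and miR-196 list 3 of 10 loci were lower, against 14.3% of all loci. Among them was miR-10b-5p, at 177366 to 247596 CPM in sham and 81706 to 112533 CPM at UUO-7 (-1.15 ± 0.23, adjusted p = 0.00069). miR-10a-5p, which has the same seed, changed by -0.55 ± 0.20 and did not reach the fold threshold.

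Smaller falls were found for miR-30, with 6 of 13 loci lower against 14.3% of all loci. miR-30a-5p was at -0.88 ± 0.13 but miR-30e-5p at -0.08 ± 0.15 (adjusted p = 0.69). The miR-30 calls depended on the scaling: none was lower with library size only, 9 were with RLE size factors, and 11 were after centring. Without UUO-7 replicate 2, 9 were lower. miR-101a-3p fell by 1.17 ± 0.15, and miR-204-5p, in an intron of Trpm3, by 1.46 ± 0.39, from 391 to 1139 CPM to 167 to 289 CPM. miR-126 of the endothelial gene Egfl7 had 4 of 4 loci lower, 2 strands that each overlap a locus of the opposite strand. miR-126a-3p went from 345 to 355 CPM to 206, 103 and 102 CPM (-1.35 ± 0.33, adjusted p = 0.0032). The tubular miR-192-5p and miR-194-5p of chromosome 19 fell by 0.96 ± 0.27 and 0.79 ± 0.24, at levels in sham of 1462 to 2814 and 58.1 to 99.1 CPM, and neither was called with library size only. miR-6538 was 22.3 to 57 CPM in sham and 5.73 to 9.27 CPM at UUO-7 (-2.40 ± 0.84, adjusted p = 0.026), a call that was lost without sham replicate 3 (adjusted p = 0.052) and without any 1 of UUO-7 replicates 2, 4 and 5 (adjusted p = 0.066, 0.084 and 0.054). The 1 tested locus of the muscle list, miR-133a-3p of chromosome 2, was at 100.3, 13.3, 11.4 and 20.3 CPM in sham and 10.4 to 11.6 CPM at UUO-7. Its call (-1.74 ± 0.69, adjusted p = 0.046) was lost without sham replicate 1 (log2 change -0.48, adjusted p = 0.41), and without any 1 of UUO-7 replicates 2, 4 and 5 (adjusted p = 0.096, 0.10 and 0.11).

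**Figure D4:**
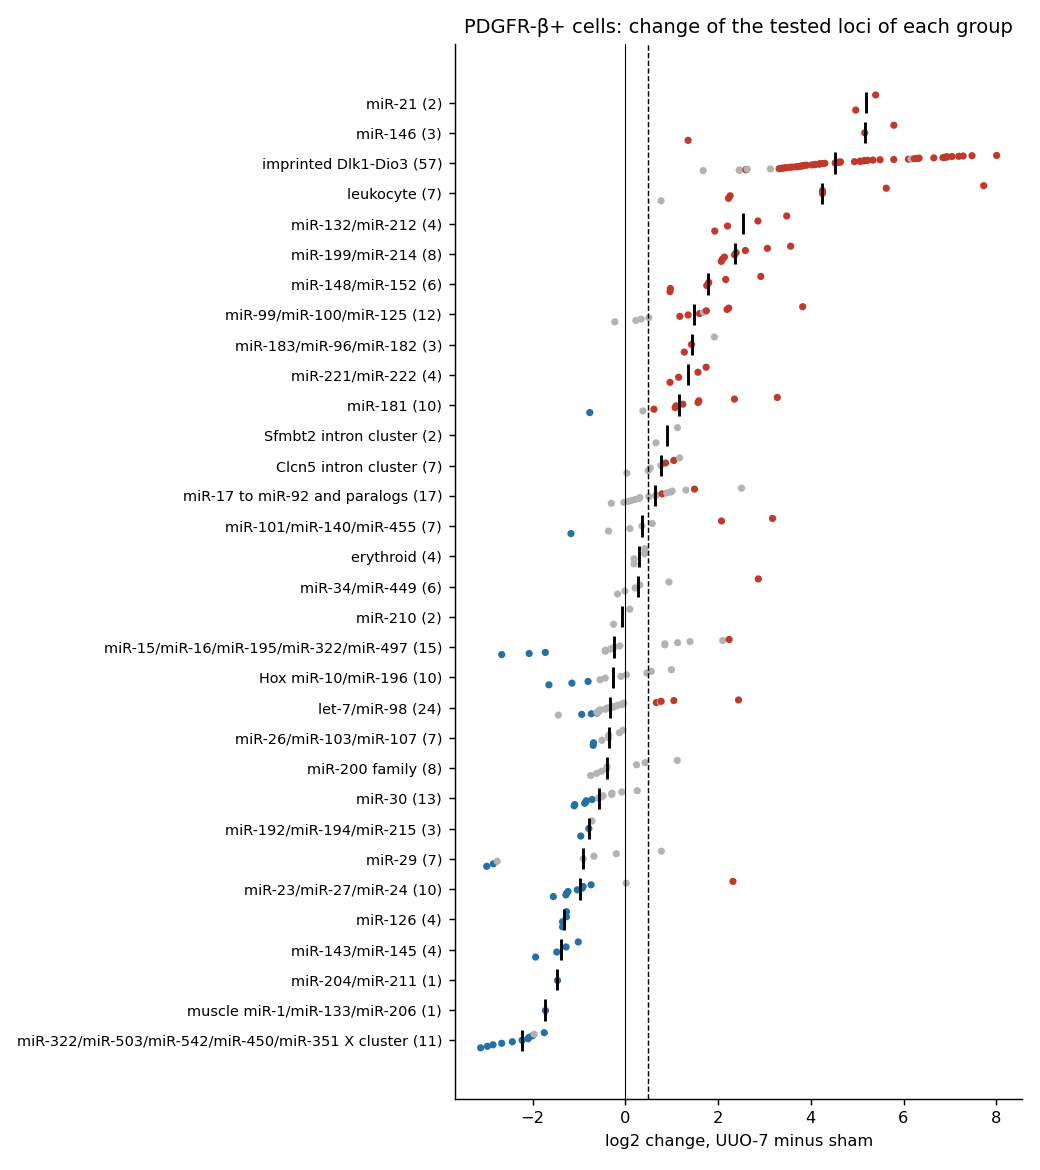
Log2 change at UUO-7 of the tested loci of each group of miRNAs (number of tested loci in brackets; red, called higher; blue, called lower; grey, not called), with a black bar at the group's median and a dashed line at the median of all loci (0.50). The groups range from the X-linked cluster at a median of -2.23 to the 2 loci of miR-21. For loci without sham counts the fitted change depends on the prior count, and with these at their bound the imprinted region has a median of 4.18 in place of 4.53 and miR-146 one of 3.00 in place of 5.16.

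The remaining lists are given beside the shares over all loci, 34.0% higher and 14.3% lower. None of 8 tested loci of the epithelial miR-200 family was called, with miR-200b-3p at 365 to 652 CPM in sham and 269 to 507 CPM at UUO-7, although 2 were lower after centring and 1 was higher without sham replicate 4. Neither strand of miR-210, a miRNA induced by hypoxia, was called, and miR-210-3p changed by -0.25 ± 0.33 (22.8 to 38.3 CPM over the 7 libraries). Of 17 loci of the miR-17 to miR-92 cluster and its paralogs, which are linked to proliferation, 2 were higher (11 with library size only, 0 higher and 1 lower after centring, and 3 higher without R-UUO replicate 1). Of 24 loci of let-7 and miR-98, 4 were higher and 3 lower, with a median of -0.32. Within that seed, let-7i-5p rose by 0.77 ± 0.12 and let-7g-5p fell by 0.94 ± 0.12. The most abundant, let-7f-5p of the X chromosome, changed by -0.57 ± 0.14 and stayed under the fold threshold. These let-7 values shifted with the scaling, from 5 higher and 0 lower with library size only to 0 higher and 15 lower after centring. The number of lower let-7 loci was also 7 without sham replicate 1 or 3, 2 without sham replicate 4 and 6 without UUO-7 replicate 5. None of the 4 tested red cell loci was called, but 2 were higher with library size only and all 4 without sham replicate 2. These are the strands of miR-486a and miR-486b, which carry the same counts in pairs, and miR-486a-5p was at 41.0, 126, 40.6 and 32.6 CPM in sham and 79.5, 74.9 and 86.9 CPM at UUO-7. Of 150 loci in the Sfmbt2 intron 2 were tested and 0 called, or 1 higher with library size only. Of the 7 loci of miR-101, miR-140 and miR-455, linked to cartilage and matrix, 2 were higher, both strands of miR-455 from an intron of the collagen gene Col27a1, and 1, miR-101a-3p, was lower. With library size only 5 of these 7 were higher. miR-455-5p rose from 5.34 to 17.2 CPM to 48.3 to 50.5 CPM (2.08 ± 0.31, adjusted p = 6.3e-05). In the Clcn5 intron cluster 2 of 7 loci were higher, in miR-34 and miR-449 1 of 6, and in miR-26, miR-103 and miR-107 0 were higher and 2 of 7 lower, with miR-26a-5p of chromosome 10 at -0.36 ± 0.10. In this last list 5 loci were lower with RLE size factors or DESeq2, 6 after centring and 0 with library size only. In the Clcn5 list 3 loci were higher without sham replicate 2, 1 without UUO-7 replicate 2 and 0 after centring. The 1 call of miR-34 and miR-449 was lost without UUO-7 replicate 4.

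Both strands of a hairpin come from one precursor and their changes can be set side by side. Both strands were tested for 130 hairpins with 1 locus per strand. Some hairpins mirror another on the opposite strand of the same bases, such as miR-126a and miR-126b, or miR-338 and miR-3065. Their loci carry almost the same counts, so such reads enter the numbers below more than once. In 34 of the 130 both strands were higher, in 16 both were lower, in 34 only 1 was called and in 44 neither was. In the remaining 2 hairpins the strands were called in opposite directions, miR-27a (above) and miR-181c. For miR-181c this depended on the scaling, since no miR-181 locus was called lower with library size only. miR-181c-5p fell from 1682 to 1955 CPM to 901 to 1202 CPM (-0.77 ± 0.16, adjusted p = 0.0013), while miR-181c-3p rose from 56.9 to 65.9 CPM to 129 to 162 CPM (1.24 ± 0.22, adjusted p = 0.00035). The other miR-181 loci went up: 8 of 10 loci of the family were higher and 1, miR-181c-5p, was lower (6 and 1 after centring, 9 and 0 with library size only). miR-181a-5p of chromosome 2 was at 12501, 10440, 11546 and 12048 CPM in sham and 24416, 28748 and 20360 CPM at UUO-7 (1.07 ± 0.15), and miR-181b-5p of the same cluster rose by 1.59 ± 0.15.

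Neighbouring loci were compared next. Among 41 runs of at least 3 tested loci, each within 10 kb of the next, all loci were higher in 6 and all were lower in 4. Loci of both directions were found in 2, the runs of miR-27a and of miR-181c. The run of miR-181c had no lower call with library size only. The 6 raised runs were those of miR-181a and miR-181b on chromosome 1, miR-199a with miR-214, miR-132 with miR-212, miR-142, miR-296 with miR-298 and miR-221 with miR-222. Some runs, such as those of miR-142, miR-126 and miR-338, include overlapping loci of opposite strands that carry the same or almost the same counts. Among 44 seeds carried by at least 2 tested miRNA names, 16 had only higher calls, 9 only lower calls, 6 both and 13 none. 428 of the 477 tested loci have a RefSeq mature sequence matched here and entered this count.

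To ask which of these changes differed from those of the other sorted cells, the change in PDGFR-β+ cells was set against the mean of the changes in ECs, Macs and PT cells in 1 fit over the 63 libraries, in which libraries that share a condition and replicate number, and may share a mouse, were not tied. At 94 of 671 loci (14.0%) the change was more positive in PDGFR-β+ cells and at 59 (8.79%) more negative. The changes that follow are log2 changes from this fit, with their SE. miR-146b-5p changed by 5.20 ± 0.22 in PDGFR-β+ cells, 1.26 ± 0.19 in ECs, 1.61 ± 0.19 in Macs and 1.24 ± 0.19 in PT cells, a difference of 3.83 ± 0.23 (adjusted p = 6.4e-20). For miR-21a-5p the changes were 4.99 ± 0.31, 2.31 ± 0.27, 0.36 ± 0.26 and 1.85 ± 0.27, with a difference of 3.49 ± 0.32 (adjusted p = 5.5e-13). Its Macs were already at a mean of 32753 CPM in sham, against 1760 CPM in PDGFR-β+ cells. miR-155-5p differed by 3.92 ± 0.48 and miR-582-3p by 4.00 ± 0.39. miR-582-3p, the locus with the largest difference among those named by the rule, changed by 3.62 ± 0.35 in PDGFR-β+ cells and by 0.95 ± 0.30, -1.56 ± 0.31 and -0.54 ± 0.29 in ECs, Macs and PT cells.

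Of the stromal miRNAs, miR-143-3p differed by -1.95 ± 0.50 (adjusted p = 0.0019), and all 4 loci of its list were called below the other cells. Its change was -1.43 ± 0.44 in PDGFR-β+ cells and 2.08 ± 0.41 in PT cells, whose sham level was 2371 CPM against 365867 CPM. miR-199a-3p and miR-214-3p differed by 1.68 ± 0.29 and 1.48 ± 0.40 (adjusted p = 7.7e-06 and 0.004), although miR-214-3p also changed by 3.68 ± 0.36 in Macs, from a mean of 2.51 CPM. Of the 8 loci of the miR-199 and miR-214 list, 4 were called above the other cells and none below. The median change of that list was 2.42 in PDGFR-β+ cells, 2.06 in PT cells, 1.72 in Macs and -0.51 in ECs. The X-linked cluster had 9 of 12 loci below the other cells and none above, with miR-351-5p at -1.96 ± 0.35 in PDGFR-β+ cells but 2.68 ± 0.33 in PT cells, a difference of -3.14 ± 0.40 (adjusted p = 6.4e-09). The first locus of miR-450a-5p differed by -3.54 ± 0.49, the second by -3.50 ± 0.51 and miR-542-5p by -3.39 ± 0.62. Of the imprinted region 6 of 54 loci were called above the other cells and none below, against 14.0% and 8.79% of all 671 loci. Among the 6 were miR-411-5p (3.23 ± 0.91, adjusted p = 0.0055) and miR-541-5p (3.59 ± 1.06, adjusted p = 0.0081), while miR-127-3p was not called (2.34 ± 0.93, adjusted p = 0.061). The difference of miR-127-3p passed without sham replicate 1 (2.64, adjusted p = 0.049) and with the mouse as a replicate block (3.23, adjusted p = 0.0051). miR-127-3p was more abundant in sham ECs, at a mean of 2951 CPM on this scale, than in sham PDGFR-β+ cells, at 425 CPM. miR-132-3p changed by 2.00 ± 0.27 in PDGFR-β+ cells, 0.55 ± 0.25 in ECs, 3.47 ± 0.28 in Macs and 2.27 ± 0.31 in PT cells, and its difference of -0.10 ± 0.30 was not called.

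**Figure D5:**
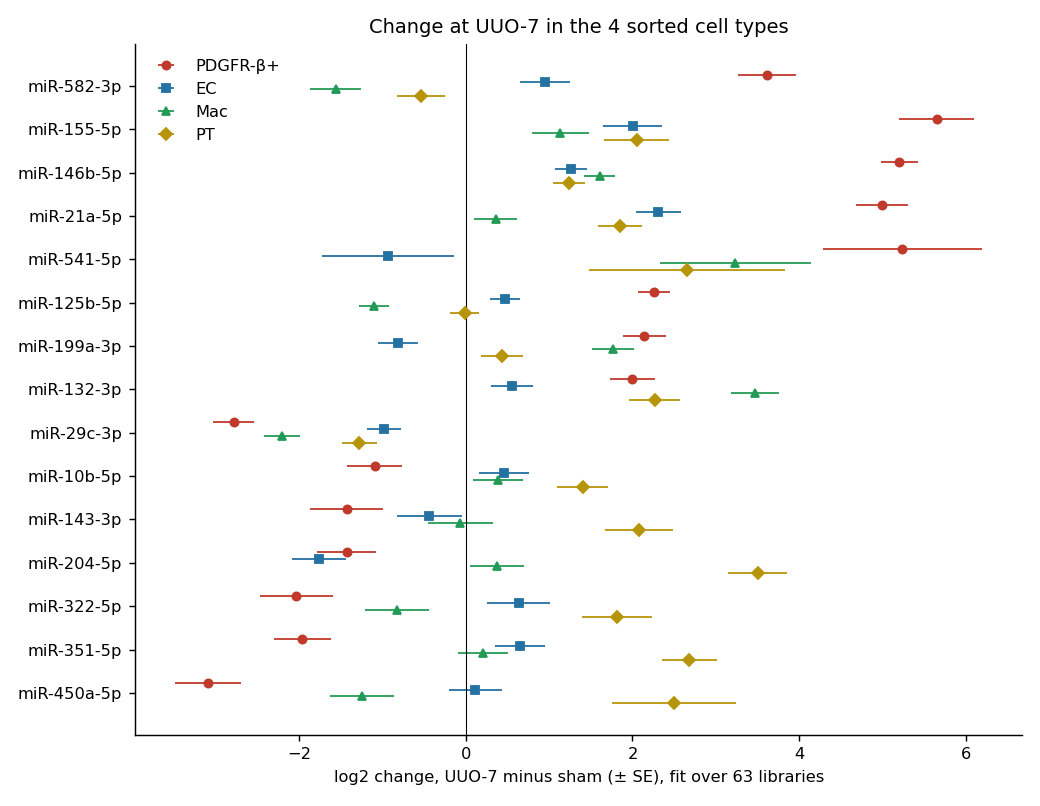
Log2 change at UUO-7 with its SE, from the fit over 63 libraries, for 15 loci in PDGFR-β+ cells, ECs, Macs and PT cells. PDGFR-β+ cells lie to the right of the other 3 types for the upper rows (miR-582-3p to miR-125b-5p) and to the left of ECs and PT cells for the X-linked loci at the bottom, whereas for miR-132-3p they lie among the others.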

How the data were processed

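The authors sorted the cells, extracted RNA (RNeasy Micro), sequenced small RNA and, per their methods, trimmed reads with TrimGalore 0.4.1 and cutadapt 1.1, aligned them to GRCm38 and counted them per miRBase 22 locus with ShortStack. The deposited values are raw counts per mature miRNA locus, which is the count unit used throughout. Neither the strand setting nor the placement of reads that match several loci is given in the sources used here, so identical and overlapping loci carry shared reads. The pooled column of the table was not used.

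Counts were scaled by TMM and tested with edgeR 4.0.16 (R 4.3.3) by the quasi-likelihood test in 1 fit over the 15 libraries of PDGFR-β+ cells, with UUO-7 set against sham, after a filter that left 477 of 2110 loci. A locus was called at a Benjamini-Hochberg adjusted p under 0.05 and a fold of at least 1.5. The difference from other cell types was tested in 1 fit over 63 libraries (671 loci). The labels name separate libraries, and p-values measure the spread between them. Sham and UUO-7 libraries of the same number come from different mice, and their deviations did not pair them. Within a condition, cell types that share a number may share a mouse, which the labels do not state, and a fit with this number as a block was an alternative for the difference from other cells. DESeq2 1.42.0, other scalings, an unfiltered fit, leaving out each library and a replicate block were the alternatives. On simulated counts for this comparison, 36 of 97 loci changed by log2 1 and 71 of 93 changed by log2 2 were recovered, none in the wrong direction, and 1 of 265 unchanged loci was called. The simulated rises and falls were balanced, unlike the calls in the data. The simulation therefore cannot show how many calls come from the scaling. Where an interval is given it covers counting error only, since the reads carry no molecular identifiers.

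The loci named were the 10 with the largest rise and the 8 with the largest fall among called loci whose groups did not overlap and whose level was at least 20 CPM in the higher group. To these were added the 8 most abundant loci, up to 4 of the most abundant tested loci of each list, and the 3 largest and 3 smallest differences from other cells, of which the text gives those whose values it prints. miR-27a-5p, miR-181c-3p, miR-15a-5p, miR-15b-5p, miR-125b-1-3p, miR-338-3p, miR-455-5p and let-7g-5p fall outside this rule and were chosen after their values were seen. Host genes are from the GENCODE annotation of GRCm38. The comparison and the lists were chosen with earlier results of these data known. Sequences are those of RefSeq, matched by name.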

Additional observations from a re-analysis of the deposited data

Results flagged for a closer look

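In 7 of the 83 loci examined, 1 of the 4 sham libraries stood far from the other 3, where chance gives about 1 in 20. These were miR-148a-3p (2651 CPM), miR-222-3p (389 CPM), miR-30a-5p (26868 CPM), miR-133a-3p of chromosome 2 (100.3 CPM) and miR-134-5p (0.42 CPM), each in sham replicate 1, then miR-223-3p (39.9 CPM) in sham replicate 3, and miR-486a-5p (126 CPM) in sham replicate 2. The value of miR-134-5p is only 3 counts, beside 0 in the other sham libraries, and can be counting error. Among the R-UUO libraries, replicate 1 held 0.977% of its counts in the imprinted region, apart from the other 3.

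The change at UUO-7 in PDGFR-β+ cells was compared with the mean change of the other 3 cell types, by a test of the difference itself. It differed for 23 of the 25 loci whose difference the text prints, some of which were named because their difference was called. Over all loci tested, 153 of 671 (22.8%) differed, so the count among the printed loci is no estimate of how common such differences are. More positive in PDGFR-β+ cells by this log2 difference were miR-582-3p (4.00), miR-155-5p (3.92), miR-146b-5p (3.83), miR-541-5p (3.59), miR-21a-5p (3.49), miR-411-5p (3.23), miR-125b-5p of chromosome 9 (2.48), miR-199a-3p of chromosome 1 (1.68), miR-214-3p (1.48), miR-222-3p (1.40), miR-181a-5p of chromosome 2 (1.19), miR-148a-3p (1.00) and miR-22-3p (0.89). More negative were both loci of miR-450a-5p (-3.54 and -3.50), miR-542-5p (-3.39), miR-351-5p (-3.14), miR-322-5p (-2.57), miR-204-5p (-2.14), miR-143-3p (-1.95), miR-10b-5p (-1.84), miR-27b-3p (-1.62) and miR-29c-3p (-1.30). A difference from this mean need not hold against each cell type. miR-204-5p changed by -1.43 in PDGFR-β+ cells, -1.76 in ECs, 0.37 in Macs and 3.50 in PT cells, so it fell in ECs as well. The difference of miR-148a-3p was no longer called without sham replicate 3 (0.85), sham replicate 4 (0.85) or UUO-7 replicate 2 (0.79). Named loci whose difference is not printed, such as the other loci of the miR-143 and miR-145 list, were called as well. The cause of these differences was not tested.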

How the results depend on the processing

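The counts depended on the scaling of the libraries. Of 162 higher and 68 lower loci, library size only gave 221 and 35, RLE size factors 146 and 94, and centring on the median locus, chosen after seeing the data, 124 and 123. DESeq2, which differs in size factors, model and test, gave 149 and 99. Leaving out 1 of the 7 libraries gave 146 to 156 higher and 65 to 76 lower loci. No locus was called in opposite directions by the main and any of the settings compared locus by locus, which leave out the fit with loci of one name summed. For the difference from other cells, with 94 loci above and 59 below, library size only gave 157 and 39, and leaving out 1 library gave 69 to 96 and 59 to 73. With library size only, the log2 change turned positive for miR-125a-5p (0.30), miR-29a-3p (0.31), miR-16-5p of chromosome 14 (0.093), miR-30e-5p (0.42, and 0.0096 with the replicate block), miR-26a-5p of chromosome 10 (0.16), miR-200b-3p (0.079) and miR-210-3p (0.25), none of which was called lower, and after centring that of miR-486a-5p, not called either, was -0.078. The difference of miR-132-3p was 0.44 with library size only, 0.019 with the mouse replicate block, and -0.37 (without UUO-7 replicate 4) to 0.12 (without sham replicate 2) with 1 library left out. The replicate block gave 156 higher and 67 lower loci, and the mouse replicate block 99 above and 59 below, with the difference of miR-127-3p then called (3.23). Libraries of one number did not deviate together (r = -0.12 for replicates 2 and 0.10 for replicates 4), so the numbers were not taken as pairs. Levels near 3 counts (0.421 to 1.16 CPM) and the 12 loci without sham counts limit what can be said of rare miRNAs.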
